A study of Mus musculus with 6 samples.

Results

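Expression of 37 listed genes of homologous recombination and the DNA damage checkpoint was examined in N2A cells, a mouse neuroblastoma line. They were chosen by name, with earlier results of these data known. Of them, 35 were measured by a probe annotated to that symbol alone, among 19938 such genes on the array. Rbbp8 and Xrcc2 were not analysed here. Bard1 and Nbn have several probes, of which the one with the highest mean over the arrays was used. Cells were transfected 24 h after plating with a short hairpin RNA (shRNA) construct against Pbcas4, or with a scramble construct as the control. The amount was 4 μg (mg in the labels), expression was transient, and RNA was taken after 72 h. There were 3 Affymetrix Mouse Gene 1.0 ST arrays of each condition, from separate transfections. Pbcas4 is the mouse relic of the coding gene BCAS4, and the study used its knockdown to look for effects across the transcriptome. With 0 probes annotated to Pbcas4, its own level was not analysed here. Values are the authors' normalized log2 expression, and a difference is the shRNA mean minus the scramble mean.

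Homologous recombination rebuilds a broken chromosome from its sister copy. The break is sensed and its ends are cut back, after which BRCA1, PALB2 and BRCA2 prepare the exposed strand, and further mediators and motor proteins help it to search for and copy the matching sequence. The Fanconi anemia pathway feeds crosslinked DNA into the same route, while the ATM and ATR kinases halt the cell cycle through CHEK2, CHEK1 and WEE1 until repair is done. Because a sister copy is needed, many of these genes are known to be transcribed mostly in cells that are preparing or copying their DNA.

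Scramble replicate 1 stood apart from the other scramble arrays before any gene was considered: across all probes it correlated at 0.990 to 0.993 with the shRNA arrays and at 0.987 to 0.988 with scramble replicates 2 and 3, which correlated at 0.994 with each other and at 0.984 to 0.991 with the shRNA arrays. Among the shRNA arrays, replicates 1 and 2 correlated at only 0.989, and replicate 3 at 0.993 and 0.995 with these. The arrays numbered 1 correlated at 0.992 with each other. Scramble replicate 1 was placed among the scramble arrays by its label. Whether that label is right was not tested, so each difference from all 3 scramble arrays is subject to it. Scramble replicate 1 is therefore shown separately below. Of 13 sympathoadrenal markers of neuroblastoma cells, 12 were measured, with a median intensity at percentile 86.0 of all probes, and 8 macrophage markers were at percentile 22.1. The fibroblast, epithelial and glial markers lay between these, at percentiles 52.8, 42.4 and 41.0. The mean of the sympathoadrenal list was 11.22 to 11.46 in the shRNA arrays and 11.59 to 11.83 in the scramble arrays, without overlap. By this list scramble replicate 1, at 11.78, lay with the other scramble arrays. The mean of the macrophage list was 6.38 to 6.51 in the shRNA arrays and 6.38 to 6.47 in the scramble arrays. The glial and epithelial lists likewise overlapped between the conditions. Their part in the results was not tested. Each array was made from a whole culture, so that fewer cells in a given cycle phase and less RNA per cell cannot be told apart.

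The recombination and checkpoint genes lay higher in the Pbcas4 shRNA arrays by condition mean, and most of this difference lay in 2 of the 3 scramble arrays. The mean was higher for 34 of the 35 measured genes, against 51.0% of all genes, and the median difference was 0.67 on the log2 scale, against 0.003 for all genes. For 22 of them the difference was over 0.5, which held for 2.67% of all genes, and for 0 of them it was under -0.5, which held for 2.81%. Of the 35, 10 were among the 100 genes with the highest difference of all 19938. Averaged over the 35 genes, log2 expression was 10.16, 10.06 and 10.02 in shRNA replicates 1, 2 and 3, against 10.05, 9.32 and 9.04 in scramble replicates 1, 2 and 3. Scramble replicate 1 thus lay within the range of the shRNA arrays, and the other scramble arrays lay well below it. Against scramble replicate 1 alone the median difference was 0.042, and against the mean of scramble replicates 2 and 3 it was 0.97.

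None of the 35 genes passed limma's moderated test at an adjusted p under 0.05 with a difference over 0.5, and neither did any other gene (0.0% of all genes); their adjusted p-values were 0.363 to 0.967. At an unadjusted p under 0.05, 16 were higher in the shRNA arrays, against 6.22% of all genes, and 0 were lower, against 5.46% of all genes. All 3 shRNA arrays lay above all 3 scramble arrays for 11 genes, against 9.13% of all genes, and below them for 0, against 7.63%. For these 11, a two-sided exact permutation p was 0.1, the smallest that 3 arrays against 3 allow. With scramble replicate 1 set aside, the shRNA arrays lay above both remaining scramble arrays for 33 of the 35 genes, against 20.3% of all genes, and below both for 0, against 19.7%. The count at an unadjusted p under 0.05 was 29 without scramble replicate 1 (11.4% of all genes) with 0 lower (8.03%). It was 2 without scramble replicate 2 or 3 and 3 without any one of the shRNA arrays. For those fits the share of all genes was not counted, so whether the fall is particular to these genes was not tested. With the replicate number as a block the count was 25 (7.2% of all genes), and still 0 passed after adjustment. Array weights were lowest for scramble replicate 1 (0.353) and highest for shRNA replicate 3 (5.32). They were 0.464 and 0.548 for shRNA replicates 1 and 2, and limma warned that they had not converged. With these weights, 30 of the 35 were higher at an unadjusted p under 0.05 (17.5% of all genes). In that fit 20 were called, all higher, where 3.44% of all genes were called higher and 6.62% in either direction. Chek2 and Mre11a were the only genes of the 35 with an unadjusted p under 0.05 whichever array was left out. How many of all genes did so was not counted, so whether this is more than the share of all genes was not tested.

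**Figure D1:**
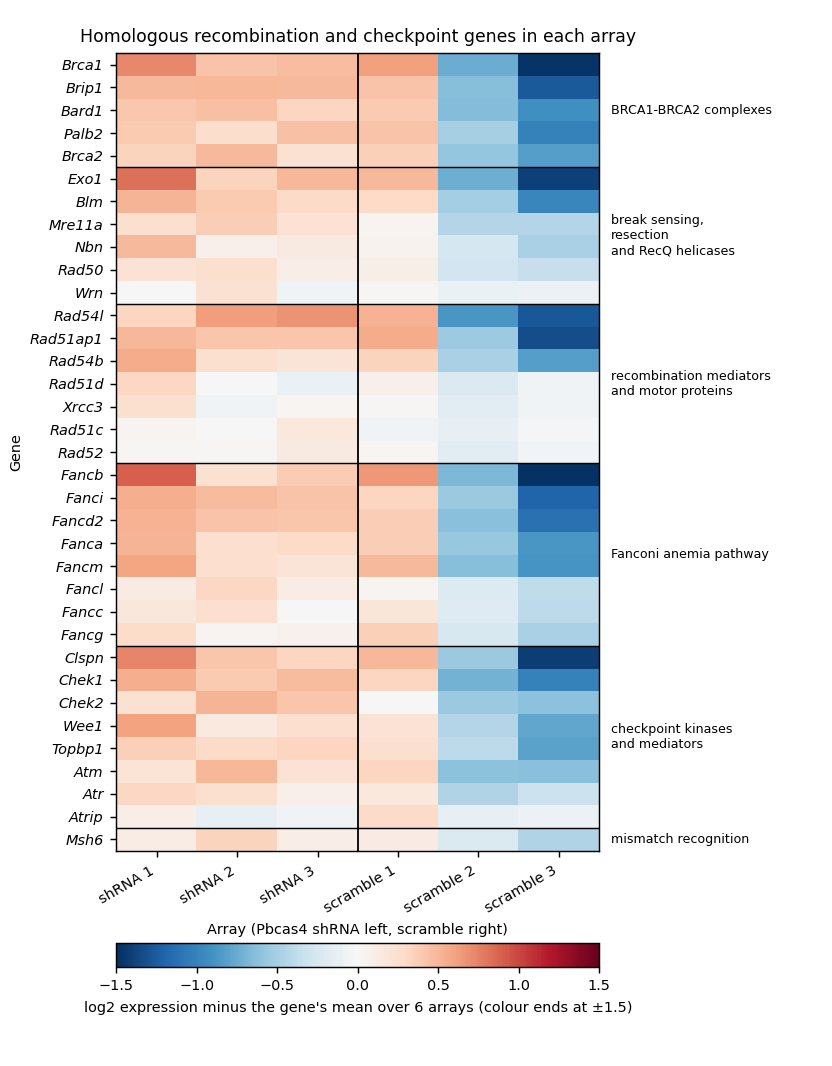
Log2 expression of each of the 35 genes in each array (columns; Pbcas4 shRNA left, scramble right), minus the gene's mean over the 6 arrays, with genes (rows) grouped by role and sorted by difference. Scramble replicate 1 has the colour of the shRNA arrays in most rows and scramble replicates 2 and 3 are blue, while Wrn, Rad51c, Rad51d, Xrcc3, Rad52 and Atrip are pale throughout.

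The BRCA1 and BRCA2 complexes varied together. All 5 genes had a mean difference of 0.70 or more, with a median of 0.78, and all 5 lay at the shRNA level in scramble replicate 1. Brca1, which pairs with Bard1 as a ubiquitin ligase and steers breaks toward recombination, was at 10.85, 10.56 and 10.60 in the shRNA arrays, against 10.74, 9.38 and 8.65 in the scramble arrays. Its first scramble array was level with the shRNA arrays while the third lay lowest, so that the conditions overlapped. The difference was 1.07 (standard error 0.49, adjusted p = 0.526), and 1.65 without scramble replicate 1. Bard1, the partner of Brca1, was at 10.25, 10.30 and 10.16 in the shRNA arrays, against 10.24, 9.20 and 8.92 in the scramble arrays (difference 0.78, standard error 0.32, adjusted p = 0.486). Its other 2 probes differed by 0.38 and 0.59, in the same direction. Brca2, a tumor suppressor that acts on the exposed single-stranded DNA, was at 10.19, 10.34 and 10.09 in the shRNA arrays, against 10.21, 9.27 and 9.03 in the scramble arrays (difference 0.70, standard error 0.30). Brip1, a helicase that binds Brca1, was the gene of this group whose arrays did not overlap between the conditions. It was at 10.32, 10.33 and 10.31 in the shRNA arrays, against 10.26, 9.19 and 8.58 in the scramble arrays (difference 0.98, standard error 0.39, adjusted p = 0.483), and the gap to scramble replicate 1 was only 0.058. Palb2, the bridge between Brca1 and Brca2, differed by 0.73, and by -0.061 from scramble replicate 1.

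Among the genes that sense breaks and process their ends, the spread between genes was wider. Of all genes, 9.13% were higher in every shRNA array than in any scramble array. By the probes used, this also held for each of the 3 subunits of the MRN complex, which binds broken ends and activates ATM. Mre11a, its nuclease, was at 10.44, 10.55 and 10.40 in the shRNA arrays, against 10.23, 9.74 and 9.74 in the scramble arrays. Here scramble replicate 1 lay between the conditions rather than among the shRNA arrays, and the difference of 0.56 had a standard error of 0.15 (adjusted p = 0.393). Rad50, the ATPase, was at 11.55, 11.58 and 11.44 in the shRNA arrays, against 11.43, 11.05 and 10.99 in the scramble arrays (difference 0.37, standard error 0.14). Nbn, the adaptor, was at 9.74, 9.33 and 9.39 in the shRNA arrays, against 9.31, 8.99 and 8.77 in the scramble arrays (difference 0.47, standard error 0.17). For both genes the gap between the lowest shRNA array and scramble replicate 1 was small. The second probe of Nbn differed by only 0.047, and its arrays overlapped between the conditions. Exo1, the exonuclease that extends resection, had the highest difference of the 35 genes. It was at 11.75, 11.25 and 11.42 in the shRNA arrays, against 11.41, 10.19 and 9.52 in the scramble arrays (difference 1.10, or 2.15-fold, standard error 0.45, adjusted p = 0.485). Scramble replicate 1 again lay inside the shRNA range. The RecQ helicases parted: Blm, which unlinks recombination intermediates, was at 11.35, 11.23 and 11.13 in the shRNA arrays, against 11.15, 10.33 and 9.86 in the scramble arrays (difference 0.79, standard error 0.30). Wrn, the Werner syndrome helicase, was at 9.83, 10.05 and 9.76 in the shRNA arrays, against 9.84, 9.72 and 9.73 in the scramble arrays (difference 0.12, 95% interval -0.13 to 0.37).

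The recombination mediators and motor proteins divided into a varying and a nearly flat set. The motor protein Rad54l, which moves along DNA during the search, was at 9.87, 10.18 and 10.22 in the shRNA arrays, against 10.08, 8.69 and 8.28 in the scramble arrays (difference 1.08, standard error 0.44, adjusted p = 0.483). Rad51ap1, an accessory protein of recombination, differed by 0.89 and Rad54b, a relative of Rad54l, by 0.66, and for all 3 the mean over the shRNA arrays was within 0.11 of scramble replicate 1. By contrast, Rad51c was at 10.15, 10.11 and 10.26 in the shRNA arrays, against 10.06, 9.99 and 10.09 in the scramble arrays (difference 0.13, 95% interval -0.075 to 0.33). Its arrays did not overlap between conditions although the difference was small, and scramble replicate 1 lay 0.024 from the mean of the other scramble arrays, the smallest such gap of the 35 genes. Rad52, a central mediator in yeast with a lesser role in mammals, was at 10.60, 10.60 and 10.72 in the shRNA arrays, against 10.61, 10.42 and 10.54 in the scramble arrays (difference 0.12, 95% interval -0.096 to 0.34). Rad51d and Xrcc3, which with Rad51c belong to complexes that assist recombination, both differed by 0.14, with 95% intervals of -0.18 to 0.47 and -0.12 to 0.40. The intervals of these genes reach up to 0.47 and overlap that of Rad54l, which was 0.029 to 2.13.

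**Figure D2:**
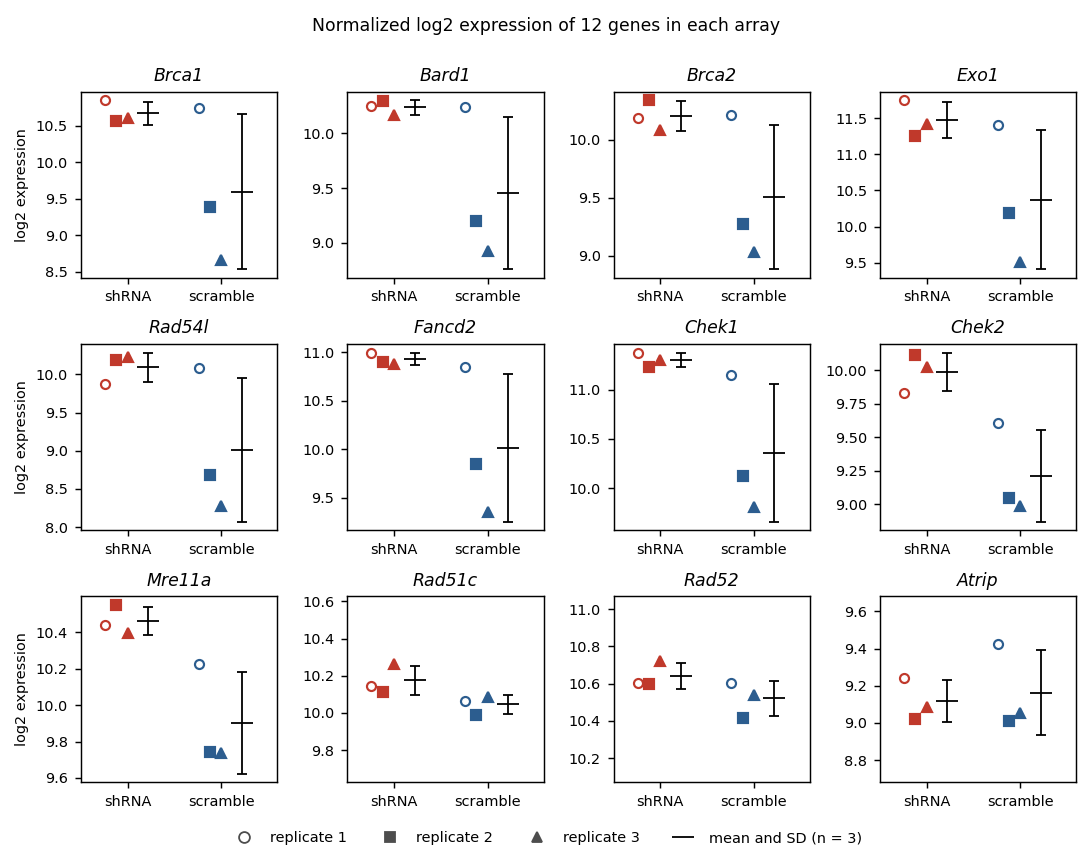
Normalized log2 expression of 12 genes in each array, with shRNA left of scramble, symbols for single arrays (open circles are replicate 1) and bars for the mean and SD of 3 arrays; each panel has its own axis. The open scramble circle lies with the shRNA arrays for Brca1 (10.74), Bard1, Brca2, Exo1 and Rad54l, between the conditions for Chek2 and Mre11a, and the panels of Rad51c, Rad52 and Atrip span little.

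The 8 Fanconi anemia genes all averaged higher in the shRNA condition (median difference 0.70). The pathway works as a core ubiquitin ligase that modifies the Fancd2 and Fanci pair at stalled forks. Fancd2 was at 10.998, 10.90 and 10.88 in the shRNA arrays, against 10.85, 9.85 and 9.35 in the scramble arrays (difference 0.91, standard error 0.35, adjusted p = 0.468). Fanci was at 10.40, 10.33 and 10.29 in the shRNA arrays, against 10.18, 9.30 and 8.66 in the scramble arrays (difference 0.96, standard error 0.35, adjusted p = 0.459). Both were higher in all shRNA arrays than in any scramble array, with scramble replicate 1 the nearest. In the core complex, Fancb had the widest gap of the 35 genes between scramble replicate 1 and the other scramble arrays, at 1.73. It was at 10.83, 10.16 and 10.31 in the shRNA arrays, against 10.58, 9.25 and 8.45 in the scramble arrays (difference 1.01, standard error 0.51). Fancl, the subunit that carries the ligase activity, was at 7.73, 7.92 and 7.72 in the shRNA arrays, against 7.65, 7.40 and 7.23 in the scramble arrays (difference 0.36, standard error 0.13, adjusted p = 0.450). Its arrays did not overlap between the conditions. Fancg, a scaffold of the core, was at 9.56, 9.33 and 9.36 in the shRNA arrays, against 9.65, 9.05 and 8.80 in the scramble arrays (difference 0.25, standard error 0.22). For Fancg scramble replicate 1 was the highest of all arrays. Of the remaining genes, Fanca of the core differed by 0.71, the translocase Fancm by 0.69 and the core subunit Fancc by 0.27.

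The checkpoint branch held both the gene with the lowest p and the one gene with a lower mean. Chek2, the kinase that ATM activates, was at 9.83, 10.11 and 10.02 in the shRNA arrays, against 9.61, 9.05 and 8.98 in the scramble arrays. All scramble arrays lay below the shRNA arrays, and its distance from scramble replicate 1 (0.38) was the widest of the 35 genes. The difference was 0.78 (standard error 0.18, unadjusted p = 0.00437, adjusted p = 0.363), and it was 0.66 to 0.97 when each array was left out in turn. Chek1, the kinase that ATR activates, was at 11.38, 11.23 and 11.30 in the shRNA arrays, against 11.15, 10.12 and 9.81 in the scramble arrays (difference 0.94, standard error 0.32, adjusted p = 0.433). Wee1, which holds the mitotic kinase CDK1 inactive, was at 11.79, 11.33 and 11.44 in the shRNA arrays, against 11.40, 10.75 and 10.41 in the scramble arrays (difference 0.67, standard error 0.26). Chek1 did not overlap between the conditions, and Wee1 did so only through scramble replicate 1. Topbp1, the activator of ATR, was at 12.37, 12.30 and 12.34 in the shRNA arrays, against 12.25, 11.62 and 11.22 in the scramble arrays (difference 0.64, standard error 0.25). Clspn, which presents CHEK1 to ATR, was at 9.38, 9.06 and 8.97 in the shRNA arrays, against 9.14, 8.10 and 7.24 in the scramble arrays (difference 0.98, standard error 0.45). Of the apical kinases, Atr differed less. It was at 10.39, 10.32 and 10.16 in the shRNA arrays, against 10.24, 9.63 and 9.76 in the scramble arrays (difference 0.42, standard error 0.17). Atm differed by 0.61, close to Topbp1. Atrip, the partner that brings ATR to single-stranded DNA, was at 9.24, 9.02 and 9.09 in the shRNA arrays, against 9.43, 9.01 and 9.05 in the scramble arrays (difference -0.046, 95% interval -0.37 to 0.28, exact permutation p = 0.9). Its arrays overlapped, and leaving out scramble replicate 1 turned the sign, to 0.085. Msh6, which recognizes mismatches and was the only gene of the list outside these branches, was at 9.59, 9.82 and 9.57 in the shRNA arrays, against 9.60, 9.26 and 9.03 in the scramble arrays (difference 0.36, standard error 0.16).

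**Figure D3:**
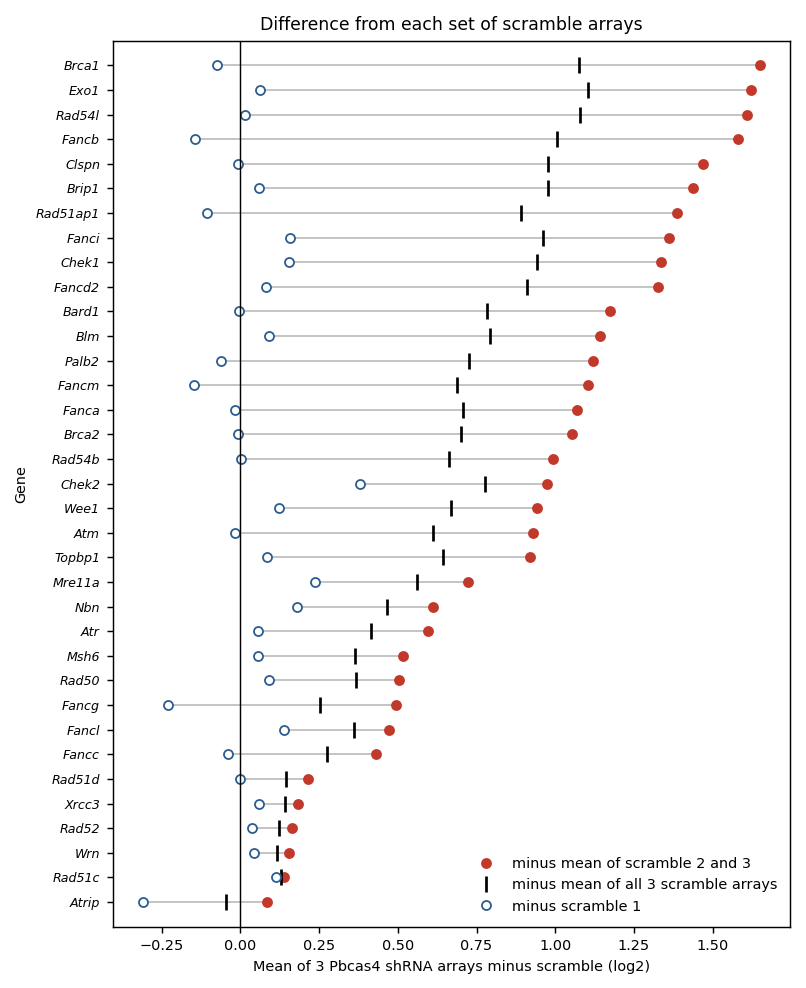
Mean of the 3 Pbcas4 shRNA arrays minus scramble, on the log2 scale, for each gene (rows): minus scramble replicates 2 and 3 (filled), minus all 3 scramble arrays (tick) and minus scramble replicate 1 (open). Open symbols lie near 0 (median 0.042) and filled ones run up to 1.65 for Brca1, with Chek2 the open symbol farthest to the right at 0.38.

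The scatter of the genes lay mostly within the scramble condition. The SD between replicates was larger in the scramble arrays than in the shRNA arrays for 31 of 35 genes, with a median of 0.55 in the scramble arrays and 0.13 in the shRNA arrays, whereas over all genes these medians were 0.121 in the scramble and 0.125 in the shRNA arrays. Scramble replicate 1 lay above both other scramble arrays for 34 genes, against 34.0% of all genes, and within the range of the shRNA arrays for 21 of 35, near the share of all genes (54.3%). Between arrays of the same replicate number, shRNA minus scramble had a median of 0.12, 0.81 and 1.04 for numbers 1, 2 and 3, and was positive for 24, 35 and 34 of the 35 genes, against 58.6%, 45.5% and 48.0% of all genes. Over the 6 arrays, 29 genes correlated with the mean of the remaining genes at a Pearson r over 0.9, and 6 genes did so at an r under 0.7: Rad52, Xrcc3, Rad51d, Wrn, Rad51c and Atrip. These are given as a description, since the points share 2 conditions. The genes outside the list whose values followed the mean of the 35 most closely were Fbxo5, an inhibitor of the anaphase-promoting complex, Atad5, which unloads the replication clamp, the actin crosslinker Actn4, the RNA-binding protein Lsm2 and the spindle checkpoint kinase Bub1b, each at r = 0.999 over 6 arrays. Atad5 was at 9.94, 9.87 and 9.81 in the shRNA arrays, against 9.81, 8.61 and 8.22 in the scramble arrays.

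Among other DNA repair genes the median differences of the lists were -0.050 to 0.43. Of 30 further measured genes of recombination and the checkpoint, 26 averaged higher in the shRNA condition and the median was 0.43, with 8 higher and 0 lower at an unadjusted p under 0.05. The resolvase Gen1 (difference 1.09) and the nuclease Dna2 (1.06) were at its upper end, and Rmi1 of the Blm complex (-0.18) and the nuclease Mus81 (-0.13) at its lower end. For 8 further Fanconi anemia genes the median was 0.18, with 4 higher and 0 lower at an unadjusted p under 0.05. The mean was higher for 6 of the 8, among them Faap24 (0.67) and the deubiquitinase Usp1 (0.61). Non-homologous end joining, which seals breaks without a template and works throughout the cycle, had a median of -0.050 over 10 genes, with 1 higher and 1 lower at an unadjusted p under 0.05: the polymerase Poll differed by 0.31 and the accessory factor Paxx by -0.61. Base excision repair had a median of 0.15 over 18 genes, with 3 higher and 2 lower at an unadjusted p under 0.05. By the same criterion, nucleotide excision repair (median 0.12 over 17 genes) had 5 higher and 0 lower. Translesion synthesis (0.17 over 10 genes) had 1 higher and 0 lower, and mismatch repair (0.32 over 4 genes) 2 higher and 0 lower. Of all genes, 6.22% were higher and 5.46% lower at that p. Smug1, a glycosylase that removes uracil from DNA, ran against the recombination genes, at 7.94, 8.30 and 8.10 in the shRNA arrays, against 9.08, 9.01 and 8.91 in the scramble arrays (difference -0.88, standard error 0.12, adjusted p = 0.337). Its scramble arrays lay close together, replicate 1 included. After adjustment 0 genes of any of these lists passed.

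Genes of DNA replication and mitosis had median differences close to that of the recombination and checkpoint genes. The median difference was 0.67 for 28 DNA replication genes and 0.70 for 23 mitosis genes, with a higher mean for every gene of both, and scramble replicate 1 lay above the other scramble arrays by a median of 1.18 for replication, 0.95 for mitosis and 0.95 for the recombination and checkpoint genes. The replication list averaged 11.67, 11.42 and 11.47 in the shRNA arrays, against 11.55, 10.64 and 10.14 in the scramble arrays. The order of the arrays was thus nearly that of the recombination genes. Of 20 listed p53 target genes, which respond to damage signalling, 18 were measured, while Cdkn1a and Bax were not analysed here. The median difference of the 18 was -0.006. At an unadjusted p under 0.05, 2 were higher and 2 lower, against 6.22% and 5.46% of all genes. Btg2, an antiproliferative p53 target, was at 7.77, 8.70 and 8.60 in the shRNA arrays, against 8.73, 9.93 and 9.42 in the scramble arrays (difference -1.002, standard error 0.36). Here both arrays numbered 1 were the lowest of their condition. How far the level of proliferation genes accounts for that of the recombination genes was not tested.

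**Figure D4:**
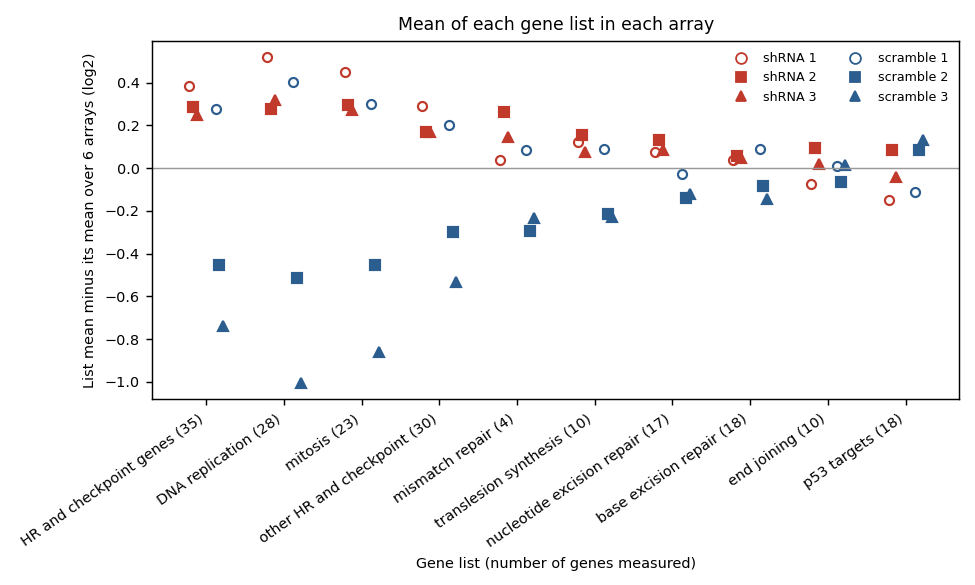
Mean log2 expression of each gene list in each array, minus the list's mean over the 6 arrays (shRNA left of scramble within each list; the number of genes measured is in parentheses, and open circles are replicate 1). The 35 recombination and checkpoint genes share with DNA replication and mitosis a scramble replicate 1 beside the shRNA arrays, and end joining and p53 targets span little.

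Since most of these genes varied together, their promoters were searched for short sequences known from cell cycle genes. RefSeq windows from 250 bases before to 50 bases after the start (GRCm38.p6) were given for 27 of the 35 genes. They were searched on both strands for the E2F letters TTTCGCGC, TTTCCCGC, TTTGGCGC and TTTGCCGC, for the cell cycle homology region (CHR) letters TTTGAA and TTCGAA, and for CCAAT. E2F letters were found for 8 of the 27 genes, or 29.6%, against 3.48% of 15563 genes on the array, 12 of 24 DNA replication genes and 1 of 20 mitosis genes. They were found for 27.8% of the 18 genes with a difference over 0.5 and for 33.3% of the 9 others. CHR letters were found for 7.41% of the 27 genes, against 19.0% of all genes and 15 of 20 mitosis genes, and CCAAT for 63.0%, against 41.7% of all genes. Of single windows, 2.26% of 32851 held E2F letters, 19.2% CHR letters and 37.4% CCAAT. The matches are a description of the letters, and binding was not measured.

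The 9 E2F matches are shown with their surroundings, so that the shared letters, their strand and their distance from the start can be compared with the differences given above. Each is written 5′ to 3′ on the strand of the gene, with the match in capitals, and a negative distance counts bases before the start.

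Bard1, chr1:71103163-71103192, - strand, match at -209: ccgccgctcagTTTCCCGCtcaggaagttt
Brca2, chr5:150522442-150522471, + strand, match at -168: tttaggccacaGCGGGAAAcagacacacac
Chek2, chr5:110839820-110839849, + strand, match at -152: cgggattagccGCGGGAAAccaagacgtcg
Topbp1, chr9:103305187-103305216, + strand, match at -129: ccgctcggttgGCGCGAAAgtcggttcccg
Fancg, chr4:43010335-43010364, - strand, match at -52: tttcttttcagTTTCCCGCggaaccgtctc
Rad51c, chr11:87404941-87404970, - strand, match at -5: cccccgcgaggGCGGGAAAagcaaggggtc
Rad51c, other start, chr11:87404477-87404506, - strand, match at 12: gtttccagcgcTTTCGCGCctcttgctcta
Msh6, chr17:87975054-87975083, + strand, match at 16: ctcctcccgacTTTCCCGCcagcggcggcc
Clspn, chr4:126556990-126557019, + strand, match at 22: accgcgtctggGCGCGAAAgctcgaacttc

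Rad51c, nearly flat over the arrays, held matches at both of its starts, and Clspn, with a difference of 0.98, held a match just inside the transcript. The 250 bases upstream of the paired genes Bard1 and Brca1 are printed in full because their proteins work as a pair while the letters found differed. The capitals mark a CHR match at -242 and an E2F match at -209 for Bard1, and a CCAAT match at -86 for Brca1, which held no E2F or CHR letters.

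Bard1, chr1:71102973-71103222, - strand: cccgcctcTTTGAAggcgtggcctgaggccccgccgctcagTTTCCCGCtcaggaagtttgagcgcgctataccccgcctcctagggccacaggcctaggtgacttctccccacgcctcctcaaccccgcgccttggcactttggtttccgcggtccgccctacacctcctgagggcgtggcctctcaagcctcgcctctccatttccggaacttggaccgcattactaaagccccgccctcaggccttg
Brca1, chr11:101551956-101552205, - strand: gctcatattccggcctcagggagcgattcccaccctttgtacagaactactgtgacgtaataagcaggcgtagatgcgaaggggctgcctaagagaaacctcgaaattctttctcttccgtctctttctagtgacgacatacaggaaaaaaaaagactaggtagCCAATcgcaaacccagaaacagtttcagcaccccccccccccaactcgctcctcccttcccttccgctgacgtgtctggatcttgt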

How the data were processed

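Values were taken as deposited: log2 expression, summarized per probe and normalized between arrays by the authors. The arrays are Affymetrix Mouse Gene 1.0 ST, the methods name limma for the comparison, and the background correction and normalization are not given in the sources used here. Array medians lay between 7.75 and 7.86. The table held 35556 probes, of which 21789 were annotated to exactly 1 symbol; 1621 with several and 12146 with none were fitted but not named. Each probe was given a two-sided moderated test (limma 3.58.1 under R 4.3.3, functions lmFit and eBayes). P-values were adjusted by Benjamini-Hochberg across the whole table, and calls needed an adjusted p under 0.05 and a log2 difference over 0.5, the reading given here to the methods' variance criterion. The procedure was tested on simulated data. The p-values reflect only how transfections varied, and precision is limited by having 3 arrays per condition.

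The 35 genes and all lists were chosen with earlier results of these data known. All measured members could be named. Values in every array were given for those at an unadjusted p under 0.05, those at either end of their role group and those with the widest or smallest gap of scramble replicate 1; of other lists, up to 2 genes at each end, and in addition the 5 genes most correlated with the members' mean. After the condition means were taken off, arrays of the same replicate number correlated at 0.291, 0.137 and 0.103. The closest scramble array to shRNA replicate 2 was, however, replicate 3 (0.199). Over all probes, limma estimated a correlation of 0.109 within a replicate number. Whether the number pairs the arrays was thus left unsettled, and it was fitted as a block only as an alternative. Differences, standard errors and p-values are from the fit without a block unless stated. Markers of glia, epithelium, macrophages and fibroblasts served as a check of the cell type; the fibroblast list averaged 8.30 to 8.38 in the shRNA arrays and 8.07 to 8.35 in the scramble arrays. Promoter letters came from RefSeq windows of GRCm38.p6. Figures were drawn with matplotlib 3.10.9.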

Additional observations from a re-analysis of the deposited data

How the results depend on the processing

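In every other fit that was run, the median difference of the 35 genes stayed above 0. It was 0.44 to 0.97 when each array was left out in turn, lowest without scramble replicate 3 and highest without scramble replicate 1, and 0.042 against scramble replicate 1 alone, a comparison added after the data were seen. The count of genes higher at an unadjusted p under 0.05 was 2 to 29 when each array was left out. It was 29 without both arrays numbered 1 and 25 with the replicate number as a block (7.2% of all genes). With array weights it was 30 (17.5% of all genes, against 6.22% without weights), and in the other fits 16 to 22. Of all genes, 11.4% were higher at that p without scramble replicate 1, and the share was not counted for the remaining fits. Without scramble replicate 1, all shRNA arrays lay above the remaining scramble arrays for 33 genes (20.3% of all genes). That count was also 33 without both arrays numbered 1, and 11 to 33 when each array was left out. Genes called after adjustment numbered 0 in every fit but that with array weights, where 20 were called (3.44% of all genes were called higher); it weighted shRNA replicate 3 at 5.32 and scramble replicate 1 at 0.353, and limma warned that the weights had not converged. The replicate block changed no other call. The difference of Atrip was -0.122 to 0.085 when each array was left out, and its sign turned with array weights (0.032), without shRNA replicate 2 (0.0019), without scramble replicate 1 (0.085) and without both arrays numbered 1 (0.023). No other gene of the 35 changed sign in the fits that kept at least 2 arrays of each condition.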
